A study of Mus musculus with 18 samples.

Results

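Of the 23038 genes in the deposited tables, 64 formed the chaperone and heat shock protein genes described here. They were chosen by name and level alone: the HSP families, the J-domain genes Dnaja, Dnajb and Dnajc, the TRiC/CCT subunits with Tcp1, the BAG genes and the prefoldin genes, averaging 5 RPKM or more (reads per kilobase of gene and per 1000000 reads) over the 6 columns. The name rule matched 95 genes, of which 31 lay under that minimum. Dnajb6 at a mean of 5.31 RPKM and Dnajc27 at 6.17 RPKM lay just inside it, and Hspa13 at 4.83 RPKM and Dnajc25 at 4.71 RPKM just outside. All genes that reached this minimum, 8092 in number, served as the background.

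Haematopoietic stem cells (HSCs) were sorted from the bone marrow of adult C57BL/6 mice as Lineage-, Sca1+, cKit+, CD150+, CD48- cells, and poly(A)+ RNA of 3000 cells per sample was divided with 1.25 µg of antibody to N6-methyladenosine (m6A). The 6 groups of 3 libraries were wild-type input, unbound and m6A-tagged RNA, and the same 3 fractions from Mx1-cre; Mettl3fl/fl mice, in which the gene of the m6A methyltransferase Mettl3 had been deleted (Mettl3-deficient, called mutant below). According to the treatment protocol, both genotypes received pIpC, an interferon inducer that switches on Mx1-cre, as 5 injections of 10 µg, and were killed 10 days after the last. Mx1-cre acts in many interferon-responsive cells besides HSCs, and whether the wild-type mice carried a Cre or a floxed allele is not given in the sources used here. Washes of the antibody beads made up the unbound fraction, and the m6A-tagged fraction was released from the beads. No fragmentation of the RNA is described, and whether transcripts were whole is not given in the sources used here. Each value covers a whole gene and gives no position of a methylated base. The study asked which transcripts of HSCs carry m6A that depends on Mettl3.

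Chaperones help proteins to fold, keep unfolded chains from clumping and hand them on to other factors. HSP70 proteins bind short stretches of unfolded chains in a cycle driven by ATP, J-domain proteins deliver the chains and start ATP hydrolysis, and BAG and HSP110 proteins release the nucleotide and so end the cycle. HSP90 acts later, on kinases and steroid receptors that are close to their final shape, while the ring-shaped TRiC (also called CCT) folds actin and tubulin that prefoldin brings to it. Many of the genes are switched on by heat shock factor 1 (Hsf1) when unfolded proteins build up, and adult HSCs are known for low protein synthesis and for sensitivity to unfolded protein.

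Each of the 6 columns is the authors' mean of 3 libraries, so no difference below has a replicate check, and no test or error can be given; a 2-fold difference is a description of these means. Depth, worked out from the genes without reads, had a harmonic mean of 15.8 to 32.9 M reads (M, 1000000) per library over the 6 groups, lowest in the mutant unbound and input groups. How much of a mean came from a single library cannot be read for these genes. Mettl3 stood at 36.4, 33.2 and 36.1 RPKM in wild-type input, unbound and m6A-tagged RNA and at 19.6, 11.2 and 17.4 RPKM in mutant RNA; reads outside the deleted exons still count, so it checks the labels only in part. All 10 HSC markers were present in both inputs, at summed levels of 1016 RPKM in wild-type cells and 1057 RPKM in mutant input. Markers of other blood cells were higher in wild-type input: the 8 granulocyte and monocyte genes summed to 4757 against 1206 RPKM, 6 erythroid genes to 161 against 47.5 RPKM and 5 megakaryocyte genes to 662 against 260.0 RPKM, while the 7 lymphoid genes summed to 9.81 against 1.06 RPKM and all 7 lay under 1 RPKM in mutant input. The 10 immediate early genes, which respond to handling of the tissue, summed to 281 RPKM in wild-type cells and 441 RPKM in mutant input. Of the 7 compared, 5 were higher in mutant input, of which 2 passed 2-fold (all genes 2.27%). These were Fos (57.0 against 179 RPKM) and Dusp1 (29.7 against 65.1 RPKM). Ier2 (78.6 against 57.6 RPKM) and Egr1 (16.6 against 10.6 RPKM) were lower.

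In the input RNA Hsp90ab1, the TRiC subunits and the endoplasmic reticulum chaperones Hspa5 and Hsp90b1 were among the most abundant of the 64. The median of the 64 genes was 36.7 RPKM in wild-type cells and 36.5 RPKM in mutant input, above the medians of all genes compared (25.4 and 23.1 RPKM). Together the 64 genes held 1.72% of the summed RPKM of the wild-type input column and 1.75% of the mutant one. The highest mean belonged to Hsp90ab1, the constitutive cytosolic HSP90, at 981 RPKM over the 6 columns, with 1079.5 RPKM in wild-type input. All 8 TRiC subunits lay between 222 RPKM (Cct2) and 651 RPKM (Cct5) in wild-type input. Hspa5 (BiP), the HSP70 of the endoplasmic reticulum, stood at 342 RPKM and Hsp90b1 (GRP94), its HSP90 counterpart there, at 321 RPKM. Hspa9 (mortalin), the mitochondrial HSP70, was present at 200.2 RPKM and Hspa8, the constitutive cytosolic HSP70, at 151 RPKM. At the low end lay Dnajb6, a J-domain protein that holds back aggregation, at 4.34 RPKM, and Dnaja1, a partner of cytosolic HSP70, at 7.61 RPKM.

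**Figure D1:**
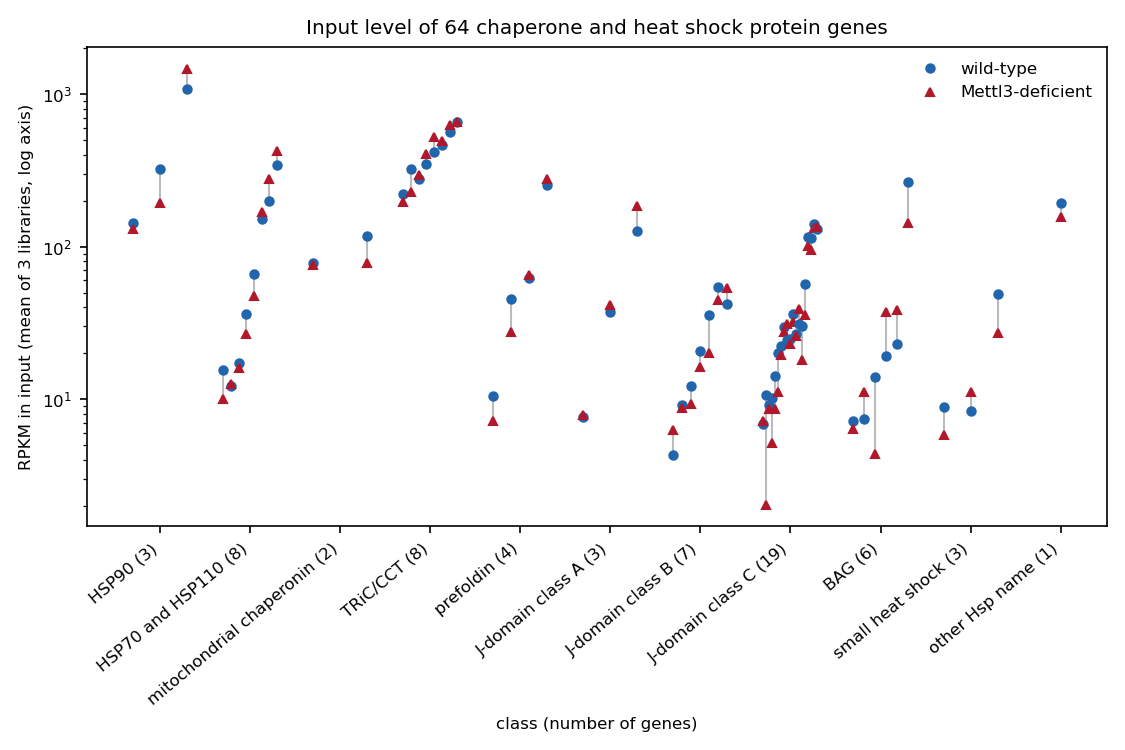
Input level of each of the 64 genes by class, on a log axis in RPKM; circles are wild-type and triangles Mettl3-deficient, each the mean of 3 libraries, and a grey line joins the 2 values of a gene. The 8 TRiC subunits all lie at or above 195 RPKM in both genotypes, and Dnajc21 and Bag6 have the longest lines.

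The HSP70 and small heat shock genes best known as stress markers lay under the minimum. Hspa1a, an inducible HSP70, had a mean of 3.46 RPKM. It stood at 0.49, 0.094 and 0.51 RPKM in wild-type input, unbound and m6A-tagged RNA and at 5.52, 1.03 and 13.1 RPKM in the mutant fractions, so the mutant value was the higher in each fraction. Hspa1b, its near-identical copy, was listed at 0.01 to 0.19 RPKM, and how reads were divided between the copies is not given in the sources used here, so both values are uncertain. Hspb1 (HSP27), another inducible gene, had a mean of 0.49 RPKM. The sum of the immediate early genes was also higher in mutant input, though of these genes Fos and Dusp1 alone passed 2-fold there and some were lower. The part of these genes in the Hspa1a values was not tested.

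The comparison of the 2 inputs asks how loss of Mettl3 changed the level of each transcript. None of the 64 genes was at least 2-fold higher in mutant input (all genes 2.27%) and 2 were at least 2-fold lower (all genes 8.42%). Both lower genes reached the minimum through their wild-type columns, and Hspa1a, higher in mutant input, lay under it, so the minimum shapes these counts. With a minimum of 10 RPKM, no member was 2-fold apart between the inputs. The ratio used here and below is log2 of (RPKM + 1) over (RPKM + 1), which understates differences of low genes. The median of the 64 genes was -0.10, beside -0.08 for all genes compared. With the columns scaled by the median ratio to the geometric mean of the 6 columns (median-ratio scaling), 1 gene (Bag5) was higher and the same 2 were lower. In bulk RNA, fewer cells of a type and less RNA per cell cannot be told apart, and the lower sums of granulocyte, monocyte, erythroid and megakaryocyte genes in this input moved with the comparison; their part in it was not tested.

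The 2 genes that were lower were Dnajc21, a J-domain factor of ribosome assembly, and Bag6, which guards membrane proteins on their way to the endoplasmic reticulum. Dnajc21 stood at 10.6 RPKM in wild-type cells and 2.04 RPKM in mutant input, a log2 ratio of -1.94. It was also low in the other mutant fractions, at 0.42 RPKM in unbound beside 3.45 RPKM in m6A-tagged RNA against 7.22 and 14.4 RPKM in wild-type. Bag6 stood at 13.9 against 4.38 RPKM, a log2 ratio of -1.47. Both means lie under 10 RPKM, so these are low levels. On the other side, Bag5, a BAG protein that acts on HSP70, was at 19.3 against 37.2 RPKM, a log2 ratio of 0.91, and Bag2 at 23.0 against 38.2 RPKM, a log2 ratio of 0.71. The BAG genes thus differed in both directions, from -1.47 to 0.91, while the 8 TRiC subunits stayed between -0.49 (Cct4) and 0.32 (Cct8).

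Of the 15 known targets of heat shock factor 1, 12 could be compared, all of them among the 64, and none was 2-fold apart between the inputs, with a median of 0.02. The other 3 lay under the minimum: Hspa1a, at 0.49 against 5.52 RPKM in mutant input (a log2 ratio of 2.13), Hspa1b and Hspb1. Hsf1 itself stood at 60.6 RPKM in wild-type cells and 48.8 RPKM in mutant input. Hsf2, another factor of the same family, lay under the minimum, at 5.73 and 1.71 RPKM. Among 22 cytosolic co-chaperones outside the name rule, 0 were at least 2-fold higher (all genes 2.27%) and 1 was lower (all genes 8.42%), Fkbp5, an HSP90 partner in steroid receptor complexes, at 29.5 against 9.07 RPKM. Among 15 compared genes of endoplasmic reticulum folding, 0 were higher and 2 lower: Hyou1, a large relative of HSP70 in that compartment, at 17.2 against 6.17 RPKM, and Ddit3 (CHOP), a factor of the stress response there, at 54.7 against 26.6 RPKM. None of 7 mitochondrial folding and protease genes was 2-fold apart, with a median of 0.41.

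The comparison of m6A-tagged with input RNA in wild-type cells asks which transcripts were taken up by the antibody beyond their share. Of the 64 genes, 1 was at least 2-fold higher in m6A-tagged RNA (all genes 4.44%) and 5 were at least 2-fold lower (all genes 5.07%), and the median was 0.09 for the 64 and 0.09 for all genes. Hspa12b, a distant HSP70 relative known from endothelial cells, was the 1 higher gene, at 12.1 RPKM in input beside 26.8 RPKM once m6A-tagged, a log2 ratio of 1.08, which was 0.98 and so under 2-fold with median-ratio scaling. Below it came Bag5 at 0.99, Dnajb1, the main J-domain partner of stress-induced HSP70, at 0.93, and Bag4, which silences death receptors, at 0.87, none of them 2-fold. Dnajb1 stood at 42.3 RPKM in input beside 81.5 RPKM once m6A-tagged.

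The 5 lower genes were Dnajc12, Cct4, Dnajc19, Hspb11 and Cct5. Dnajc12, which helps to fold the aromatic amino acid hydroxylases, had the lowest ratio, at 10.2 RPKM in input against 1.24 RPKM in m6A-tagged RNA, a log2 ratio of -2.32. The TRiC subunits Cct4 and Cct5 stood at 321 against 142 RPKM (-1.18) and 651 against 321 RPKM (-1.02). Of the 8 TRiC subunits, 7 lay below 0, and the class median was -0.37. The exception was Tcp1, at 0.19. Dnajc19, a part of the mitochondrial import motor, had a ratio of -1.13, and Hspb11, which despite its name is a subunit of the cilia transport complex, -1.09.

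In mutant cells the ratios of m6A-tagged to input RNA lay closer together, for the 64 genes and for all genes alike. The quartiles of all genes were -0.33 and 0.49 in wild-type and -0.15 and 0.39 in mutant cells. None of the 64 genes was 2-fold higher (all genes 1.94%) and none was 2-fold lower (all genes 1.29%). Their range ran from -0.69 (Dnaja2, a cytosolic HSP70 partner) to 0.86 (the prefoldin subunit Pfdn4), against -2.32 to 1.08 in wild-type. The median of the 64 was -0.09, beside 0.13 for all genes. All 8 TRiC subunits lay below 0 (-0.55 to -0.10), and so did the 3 HSP90 genes (-0.53 to -0.28) and both mitochondrial chaperonin genes, under either scaling of the columns. Of the 12 known heat shock factor 1 targets compared, 2 lay above 0 (Dnajb1 at 0.54 and Bag3 at 0.47), and their median was -0.37. In wild-type cells 7 of these 12 lay above 0, with a median of 0.14.

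**Figure D2:**
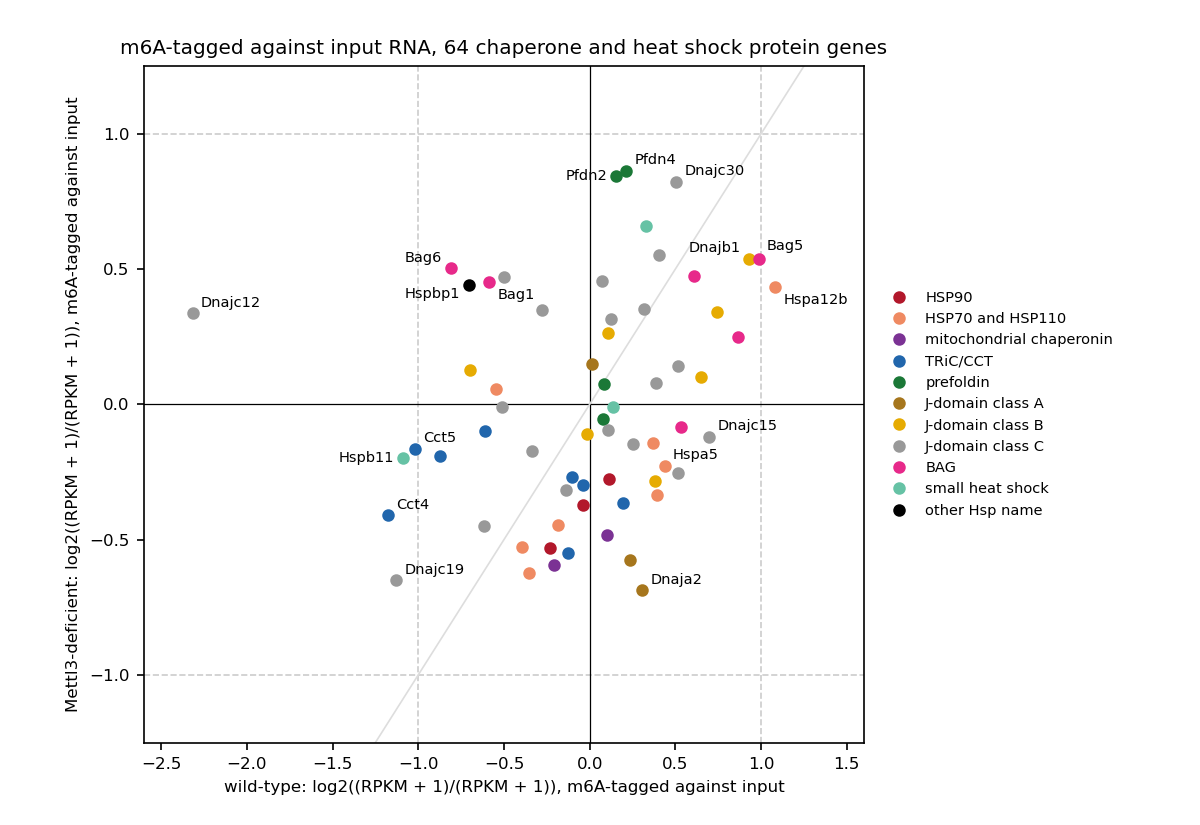
Ratio of m6A-tagged to input RNA for each of the 64 genes, as log2((RPKM + 1)/(RPKM + 1)), in wild-type (x axis) and Mettl3-deficient cells (y axis, another range), coloured by class. Dashed lines mark 2-fold and the grey line equality; 6 genes pass 2-fold along the x axis and none along the y axis.

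The difference between the genotypes in this ratio was at least 2-fold higher in mutant cells for 4 of the 64 genes (all genes 7.41%) and at least 2-fold lower for none (all genes 3.84%). The median was -0.14, beside 0.02 for all genes. With median-ratio scaling the counts were 4 and 1, and with upper-quartile scaling 3 and 1; Dnaja2, at -0.99 as deposited, was the gene that then passed. The 4 genes were Dnajc12 (2.65), Bag6 (1.31), Hspbp1 (1.15) and Bag1 (1.04), and each had a ratio below 0 in wild-type and above 0 in mutant cells. Bag1 was at 0.95, under 2-fold, with upper-quartile scaling. Dnajc12 stood at 5.16 RPKM in mutant input and 6.78 RPKM in m6A-tagged RNA. Hspbp1 and Bag1 both release nucleotide from HSP70. Hspbp1 went from 192 to 117 RPKM in wild-type and from 155 to 211 RPKM in mutant cells. Bag1 went from 267 to 177 RPKM in wild-type and from 142 to 195 RPKM in mutant cells.

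In the unbound fraction, classes of these genes went different ways. The genotypes differed there for more genes than in input, among the 64 and among all genes alike. Between the unbound columns 7 of the 64 were at least 2-fold higher and 22 lower in mutant cells (all genes 18.9% and 23.8%). Between the inputs these counts were 0 and 2 (all genes 2.27% and 8.42%). In wild-type cells 1 of the 64 genes was at least 2-fold higher in unbound than in input RNA (all genes 3.98%) and 13 were at least 2-fold lower (all genes 31.3%). In mutant cells 10 were higher (all genes 15.4%) and 27 lower (all genes 34.9%). The medians of the 64 were -0.11 in wild-type and -0.79 in mutant cells, beside -0.26 and -0.36 for all genes. These ratios depend on the scaling, since median-ratio scaling moved the median of all genes to 0.01 and 0.02. It gave 7 higher and 11 lower genes in wild-type and 12 higher and 16 lower in mutant cells. The shares of all genes above hold for the columns as deposited, so they are no background for these rescaled counts. As a share of the summed RPKM, the 64 genes held 1.71% of the wild-type unbound column and 0.94% of the mutant one, against 1.55% and 1.52% of the m6A-tagged columns. The 2 unbound comparisons share no column. Of the 13 genes lower in wild-type and the 27 lower in mutant cells, 9 were the same (69.2% of the former and 33.3% of the latter), beside 63.0% and 56.5% for all genes.

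**Figure D3:**
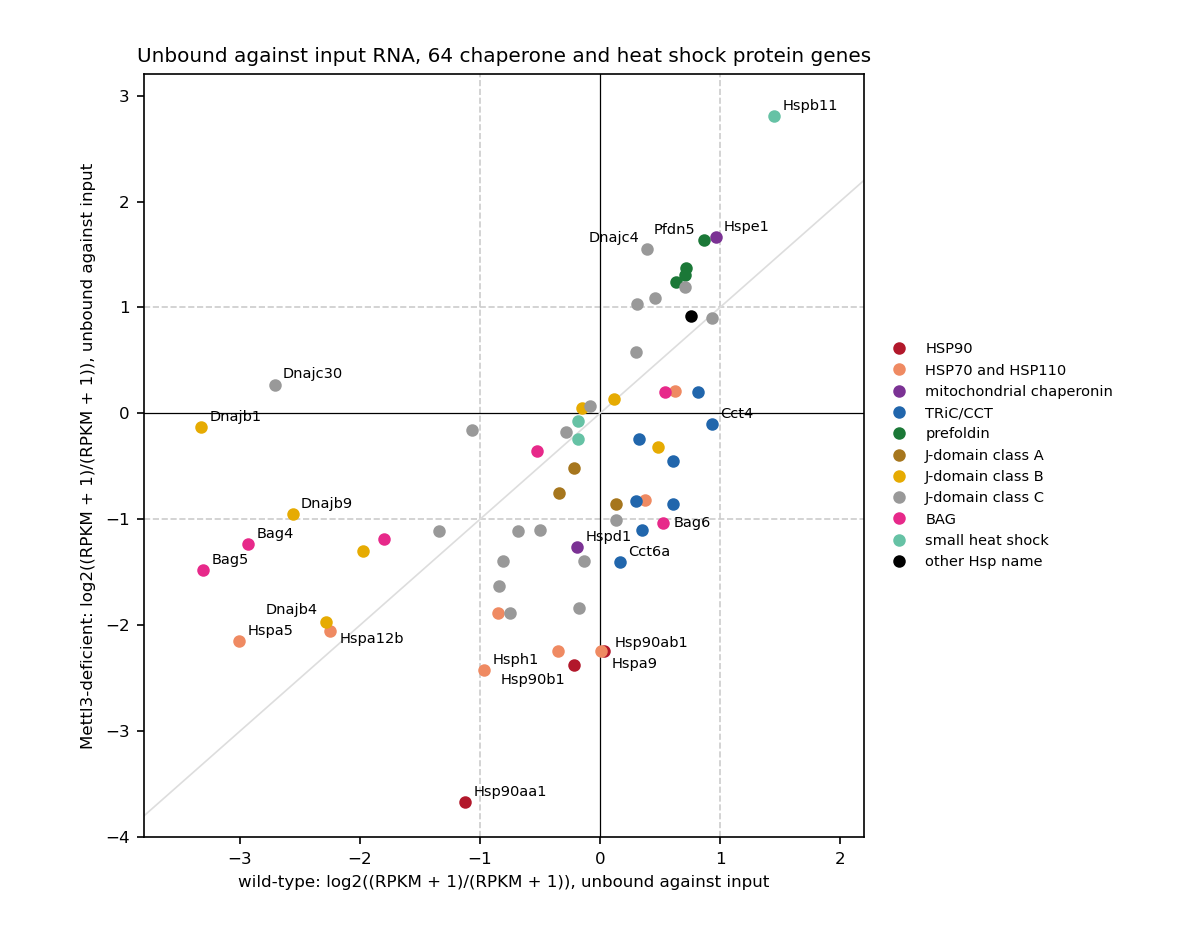
Ratio of unbound to input RNA for each of the 64 genes, as log2((RPKM + 1)/(RPKM + 1)), in wild-type (x axis) and Mettl3-deficient cells (y axis), coloured by class. Dashed lines mark 2-fold and the grey line equality; the 3 HSP90 genes lie under -2 on the y axis, the 4 prefoldin genes above 1, and Dnajb1, Dnajc30, Bag4 and Bag5 far to the left.

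All 3 HSP90 genes were lower in mutant unbound than in mutant input RNA. Hsp90aa1, the stress-inducible cytosolic form, stood at 143, 65.2 and 139 RPKM in wild-type input, unbound and m6A-tagged RNA and at 131, 9.34 and 101 RPKM in the mutant fractions. Its unbound value was the lowest of the 3 fractions in each genotype, and the mutant unbound value was the lowest of all 6, a log2 ratio to input of -3.67 against -1.13 in wild-type. Hsp90ab1 stood at 1079.5, 1106 and 919.8 RPKM in wild-type cells and 1462, 308 and 1011 RPKM in mutant RNA. Its wild-type fractions lay close together, and its mutant unbound value stood apart (-2.24). Hsp90b1 stood at 321, 276 and 347 RPKM in wild-type cells and 193, 36.3 and 159 RPKM in mutant RNA, with the unbound value the lowest of the 3 fractions in each genotype (-2.38 in mutant cells). The median of the 3 genes was -2.38 in mutant cells, and all 3 were at least 2-fold lower (all genes 34.9%), under either scaling as well. In wild-type cells the median was -0.22 as deposited and 0.07 with median-ratio scaling, so its direction depends on the scaling.

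Most HSP70 and HSP110 genes were also lower in mutant unbound than in mutant input RNA. In mutant cells 6 of 8 were at least 2-fold lower in unbound than in input RNA (all genes 34.9%), under either scaling as well. In wild-type cells 2 of 8 were lower as deposited (all genes 31.3%). Hspa9 stood at 200.2, 202 and 176 RPKM in wild-type cells and 278, 58.0 and 204 RPKM in mutant input, unbound and m6A-tagged RNA. The HSP110 genes Hspa4, Hspa4l and Hsph1, which release nucleotide from HSP70, had mutant ratios of -2.25, -1.88 and -2.42, against -0.35, -0.85 and -0.97 in wild-type. Hspa4 was at 9.25 RPKM in mutant and 51.4 RPKM in wild-type unbound RNA, and Hsph1 at 2.16 and 8.40 RPKM. Hspa8 stood at 151, 196 and 118 RPKM in wild-type cells and 168, 94.4 and 108 RPKM in mutant RNA, above input in the former (0.38) and below it in the latter (-0.82). Hspa14, a ribosome-bound HSP70 relative, was the 1 gene of the class above 0 in both genotypes (0.62 and 0.21). Hspa12b was low in unbound RNA of both, at 1.75 and 2.27 RPKM.

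Hspa5 was the HSP70 with the lowest unbound share in wild-type cells. It stood at 342, 41.7 and 463 RPKM in wild-type cells and 426, 95.0 and 364 RPKM in mutant input, unbound and m6A-tagged RNA, log2 ratios of unbound to input of -3.00 and -2.15. Its span (chromosome 2, 34772090 to 34776529 in mm10) overlaps that of Rabepk by 1921 bases, and the sources used here do not say whether counting used strand. Hspa5, Hsp90b1 and Dnajc3, an endoplasmic reticulum J-domain protein, were the members whose promoters held the endoplasmic reticulum stress element, the site through which unfolded protein in that compartment is known to act on transcription. The search took the 250 bases before each RefSeq start (GRCm38.p6, the build also called mm10), on both strands, for CCAAT and CCACG with any 9 bases between them. It matched 0.113% of 32851 promoter windows. Counted by gene, it matched 0.13% of 27025 genes and 3 of the 52 members with a window (5.77%). The matched bases are in capitals below, with 25 bases on either side, each written 5′ to 3′ on the strand of its gene, and they are shown because these 3 genes differ in their unbound share.
Hspa5, chr2:34772000-34772068, plus strand: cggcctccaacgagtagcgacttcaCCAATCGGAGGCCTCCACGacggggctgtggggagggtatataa
Hsp90b1, chr10:86705613-86705681, minus strand: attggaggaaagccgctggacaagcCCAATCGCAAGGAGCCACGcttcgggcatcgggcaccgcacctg
Hsp90b1, chr10:86705508-86705576, minus strand, matched on the opposite strand: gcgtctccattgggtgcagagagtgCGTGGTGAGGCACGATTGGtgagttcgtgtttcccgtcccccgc
Dnajc3, chr14:118937802-118937870, plus strand: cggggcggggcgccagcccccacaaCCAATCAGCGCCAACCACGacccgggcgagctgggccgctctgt
With this element in common, the 3 genes had wild-type unbound ratios of -3.00 (Hspa5), -0.22 (Hsp90b1) and -0.14 (Dnajc3), so only Hspa5 of the 3 was 2-fold lower there. In mutant cells all 3 were at least 2-fold lower (-2.15, -2.38 and -1.39), under either scaling as well, beside 34.9% of all genes as deposited. A match of letters is not a measured site, and its part in these values was not tested.

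The mitochondrial chaperonin genes Hspd1 (HSP60) and Hspe1 (HSP10), whose proteins form the folding chamber of mitochondria and its lid, lie head to head on chromosome 1 and went opposite ways in the unbound fraction. Hspd1 stood at 78.4, 68.8 and 84.0 RPKM in wild-type cells and 76.2, 31.1 and 54.2 RPKM in mutant input, unbound and m6A-tagged RNA. Hspe1 stood at 118, 231 and 102 RPKM in wild-type cells and 78.2, 249.7 and 51.5 RPKM in mutant RNA, with the unbound fraction the highest in each genotype. The unbound ratios were -0.19 and -1.27 for Hspd1 and 0.96 and 1.66 for Hspe1. With median-ratio scaling the wild-type value of Hspd1 was 0.10, its mutant value -0.86, which is under 2-fold, and Hspe1 passed 2-fold in both genotypes. The 2 spans (55077833 to 55088243 and 55088148 to 55091317) overlap by 96 bases.

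Where these 2 genes start, the DNA held the heat shock element, the site bound by heat shock factor 1; it lies before the start of Hspe1 and before 1 of the annotated starts of Hspd1, within the longest span of Hspd1. The search for GAA, TTC and GAA with any 2 bases between each, on both strands of the same 250 bases, matched 0.466% of all windows. Counted by gene, it matched 0.51% of 27025 genes and 3 of the 52 members with a window (5.77%), Hspd1, Hspe1 and Dnajb6. The capitals mark 2 overlapping matches for Hspd1 and Hspe1 and 1 match for Dnajb6, each with 6 bases on either side since annotated genes cover them, and the pair is shown because it is 1 stretch of DNA read from its 2 strands.
Hspe1, chr1:55088053-55088082, plus strand: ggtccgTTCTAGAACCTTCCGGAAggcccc
Hspd1, chr1:55088053-55088082, minus strand: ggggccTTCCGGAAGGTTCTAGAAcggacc
Dnajb6, chr5:29735846-29735870, plus strand: ctccgaGAATCTTCCGGAAcgctag
The genes Hspd1 and Hspe1 thus share the printed element, had input log2 ratios between the genotypes of -0.04 and -0.59, and differed in the unbound fraction. Dnajb6 stood at 4.34, 3.82 and 5.95 RPKM in wild-type cells and 6.28, 6.52 and 4.97 RPKM in mutant RNA and was not 2-fold apart in either unbound comparison. The remaining members with a window held no match to these letters, which says nothing of the factor.

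TRiC and prefoldin work as a pair, and in the mutant unbound fraction the TRiC subunits and the prefoldin genes of the name rule parted. All 8 TRiC subunits lay above 0 in the wild-type unbound fraction, from 0.16 (Cct6a) to 0.93 (Cct4), with a median of 0.48, under either scaling as well. In mutant cells 1 of the 8 lay above 0 (Cct5 at 0.21) and the median was -0.64. There 2 were at least 2-fold lower (all genes 34.9%), Cct6a at -1.41 and Cct3 at -1.11. With median-ratio scaling 3 lay above 0, none was 2-fold lower and the median was -0.22. Cct4 stood at 321, 615 and 142 RPKM in wild-type cells and 229, 213 and 172 RPKM in mutant input, unbound and m6A-tagged RNA. Cct5 stood at 651, 1150.5 and 321 RPKM in wild-type cells and 651, 751 and 581 RPKM in mutant RNA. For both, wild-type unbound was the highest of the 6 values and wild-type m6A-tagged the lowest. Tcp1, the alpha subunit, varied less, at 279, 349 and 319 RPKM in wild-type cells and 297, 251 and 230.1 RPKM in mutant RNA.

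The 4 prefoldin genes were higher in the unbound fraction in both genotypes. In wild-type cells they lay between 0.63 (Pfdn4) and 0.86 (Pfdn5). In mutant cells all 4 were at least 2-fold higher (all genes 15.4%), from 1.24 to 1.63, under either scaling as well. Pfdn5 stood at 252, 459.6 and 266 RPKM in wild-type cells and 279, 868 and 269 RPKM in mutant input, unbound and m6A-tagged RNA, so that its mutant unbound value was the highest of the 6 and its other values lay between 252 and 459.6 RPKM. In the same order of fractions, Pfdn1 stood at 62.5, 102 and 66.3 RPKM in wild-type cells and 65.1, 163 and 68.7 RPKM in mutant cells. Pfdn2 stood at 45.6, 75.5 and 50.8 RPKM in wild-type cells and 27.6, 72.7 and 50.2 RPKM in mutant cells. Pfdn4 was the lowest of the class, at 10.5, 16.8 and 12.3 RPKM in wild-type cells and 7.15, 18.3 and 13.8 RPKM in mutant cells. In each of these 3 the unbound value was the highest of its genotype. The name rule did not reach the other prefoldin subunits. Vbp1 (prefoldin 3) belonged to the list of cytosolic co-chaperones. Pfdn6, listed in the tables as H2-Ke2, was looked up after these values had been seen. Pfdn6 had unbound ratios of 0.55 in wild-type and 1.03 in mutant cells, and Vbp1 0.75 and 0.44. Between the unbound columns Vbp1 was at least 2-fold lower in mutant cells (-1.24). Pfdn6 was at -0.32 there, and the 4 genes of the name rule lay between -0.05 and 0.92.

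Among the J-domain genes, Dnajb1 and Dnajc30 were far lower in the wild-type unbound fraction than in the mutant one. Dnajb1 (chromosome 8, 83608175 to 83612653) stood at 42.3, 3.32 and 81.5 RPKM in wild-type input, unbound and m6A-tagged RNA and at 53.7, 48.9 and 78.4 RPKM in the mutant fractions. The wild-type unbound value was the lowest of the 6 and the others lay between 42.3 and 81.5 RPKM. The log2 ratios of unbound to input were -3.32 in wild-type and -0.13 in mutant cells. Dnajc30, a mitochondrial J-domain protein (chromosome 5, 135064206 to 135065365), also had its lowest value in wild-type unbound RNA, at 24.8, 2.95 and 35.6 RPKM in wild-type cells and 23.1, 28.0 and 41.6 RPKM in mutant RNA. Of its 1160 bases, 754 overlap Bud23, a ribosomal RNA methyltransferase gene listed in the tables as Wbscr22, at 93.1, 95.3 and 105 RPKM in wild-type cells and 125, 168 and 196 RPKM in mutant RNA, so the source of Dnajc30 reads is uncertain. Dnajb9 (ERdj4), a J-domain partner of Hspa5, stood at 20.7, 2.67 and 35.3 RPKM in wild-type cells and 16.2, 7.88 and 20.7 RPKM in mutant cells, low in unbound RNA of both genotypes (-2.56 and -0.95). Dnajb1, Dnajc30, Dnajb9 and Dnajc14 were the 4 genes that were 2-fold lower in wild-type and not in mutant unbound RNA, and the wild-type value of Dnajc14, -1.07, lay close to the threshold.

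Other J-domain genes did not follow Dnajb1. Of the 7 class B genes, 4 were at least 2-fold lower in wild-type unbound RNA (all genes 31.3%) and 2 in mutant unbound RNA (all genes 34.9%). The class medians were -1.98 and -0.32 (0.05 in mutant cells with median-ratio scaling, so that direction depends on it). Dnajb4, a cytosolic partner of HSP70, and Dnajb12, a membrane protein of the endoplasmic reticulum, were low in both genotypes, at -2.28 and -1.97 and at -1.98 and -1.30. Dnajb11 (ERdj3), another Hspa5 partner, was level in both (0.12 and 0.13). The 3 class A genes, among them Dnaja1 at 7.61, 8.44 and 9.13 RPKM in wild-type cells and 7.86, 3.88 and 4.94 RPKM in mutant RNA, had no value past 2-fold. Of the 19 class C genes, 0 were higher and 3 lower in wild-type, and 4 higher (2 with upper-quartile scaling) and 9 lower (5 with median-ratio scaling) in mutant cells. The shares of all genes were 3.98% higher and 31.3% lower in wild-type and 15.4% and 34.9% in mutant cells, so the class C count was under that share for lower genes in wild-type and close to it for higher genes in mutant cells. The 4 higher genes were Dnajc4 (1.56), Dnajc15 (1.19), Dnajc19 (1.09) and Dnajc24 (1.03), of which Dnajc15 and Dnajc19 are alternative parts of the mitochondrial import motor. The lowest were Dnajc5, the cysteine string protein of secretory vesicles (-1.89), and Dnajc2, a ribosome-bound J-domain protein that works with Hspa14 (-1.84).

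The BAG genes were split as well. Bag5 stood at 19.3, 1.05 and 39.2 RPKM in wild-type cells and 37.2, 12.7 and 54.5 RPKM in mutant input, unbound and m6A-tagged RNA. Bag4 stood at 7.24, 0.080 and 14.0 RPKM in wild-type cells and 6.42, 2.15 and 7.81 RPKM in mutant cells. Bag3, which brings HSP70 clients to autophagy, stood at 7.46, 1.43 and 11.9 RPKM in wild-type cells and 11.1, 4.33 and 15.9 RPKM in mutant cells. These 3 were at least 2-fold lower in the unbound fraction of both genotypes, from -3.31 to -1.80 in wild-type and -1.48 to -1.19 in mutant cells. Of all genes, 31.3% were lower in wild-type and 34.9% in mutant cells. The low levels of Bag3 and Bag4 make the added 1 RPKM weigh on their ratios. Bag6 joined them in mutant cells, at -1.04, and with median-ratio scaling Bag5 was the 1 of the 4 that still passed there. Bag1 lay above input in both genotypes (0.54 and 0.20). Of the 3 genes named as small heat shock proteins, Hspb11 was the gene with the highest unbound ratio of the 64 in each genotype, at 48.8, 135 and 22.4 RPKM in wild-type cells and 27.0, 195 and 23.4 RPKM in mutant RNA (1.45 and 2.81). Hspb6 and Hspb8, true small heat shock proteins, were level in both.

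**Figure D4:**
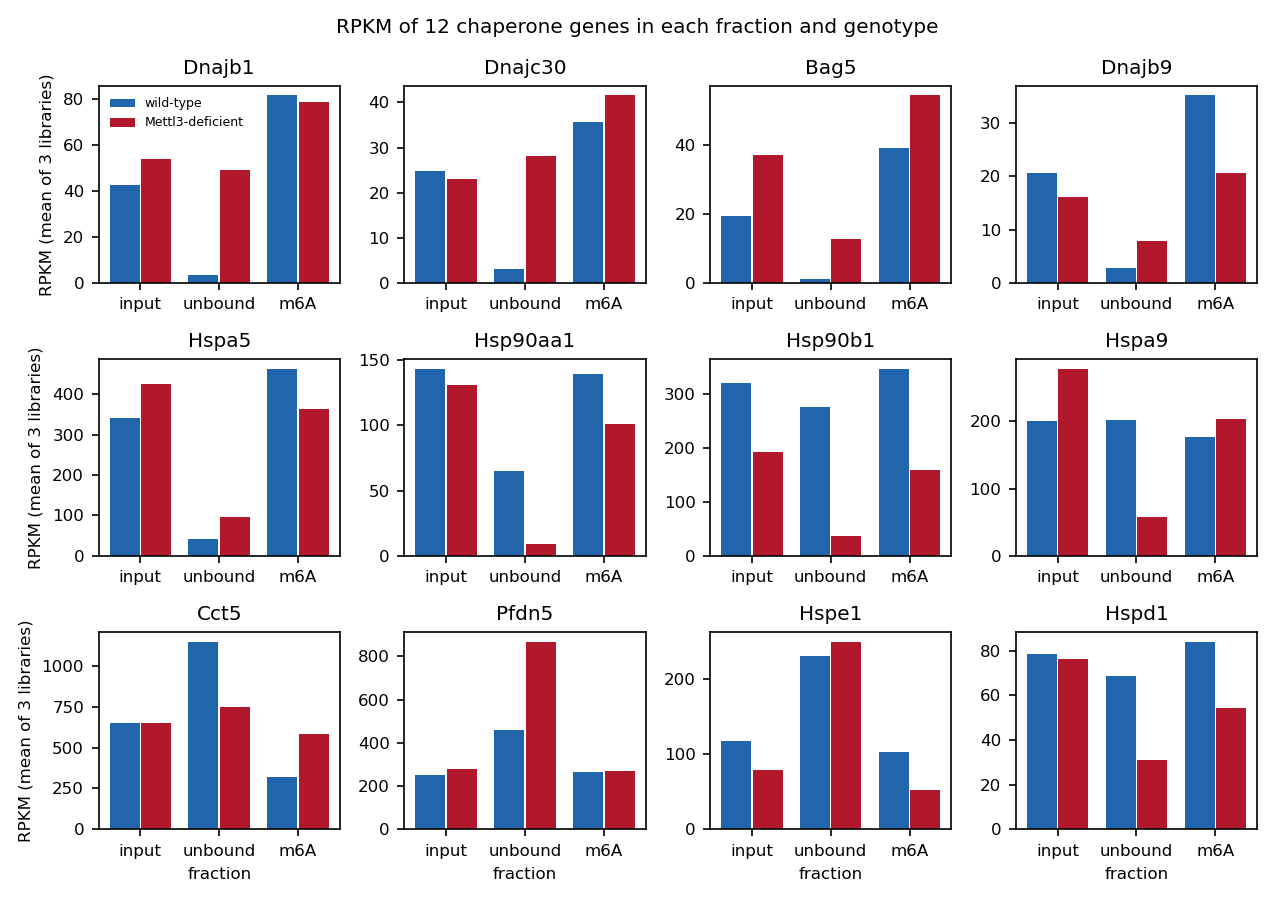
RPKM of 12 genes (bars, means of 3 libraries, each panel with its own axis from 0) in input, unbound and m6A-tagged RNA of wild-type and Mettl3-deficient cells. Dnajb1 has 3.32 RPKM in wild-type cells and 48.9 RPKM in Mettl3-deficient unbound RNA, whereas Hsp90aa1 has 65.2 and 9.34 RPKM.

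Set side by side, the 2 unbound columns gave 7 of the 64 genes at least 2-fold higher in mutant cells (all genes 18.9%) and 22 at least 2-fold lower (all genes 23.8%), with a median of -0.32 beside -0.04 for all genes. Median-ratio scaling put the all-gene median at 0.17, and the counts then were 9 and 17. The shares just given are those of the deposited columns and are no background for the rescaled counts. This comparison uses the same unbound columns as the ratios above and is no separate support for them. The 7 higher genes were Dnajb1 (3.53), Dnajc30 (2.88), Bag5 (2.74), Bag4 (1.55), Dnajb9 (1.28), Hspa5 (1.17) and Bag3 (1.13). Dnajb1 was 11.5-fold higher on this scale and Dnajc30 7.35-fold. The lowest were Bag6 (-3.04), Hsp90b1 (-2.89), Hsp90aa1 (-2.68), Dnajc21 (-2.54), Hspa4 (-2.36), Dnajc2 (-2.32), Hsp90ab1 (-1.84), Hspa9 (-1.78), Hspa4l (-1.62) and Hsph1 (-1.57). All 8 TRiC subunits lay below 0, from -1.52 to -0.47, and 5 passed 2-fold (4 with median-ratio scaling). The immediate early genes, which are short-lived transcripts, moved with the higher group: they summed to 60.3 RPKM in wild-type cells and 271 RPKM in mutant unbound RNA, and 6 of 7 compared were at least 2-fold higher; their part in these values was not tested.

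The genes around the chaperone cycle were counted in the same way. In mutant unbound against input RNA, where 15.4% of all genes were higher and 34.9% lower, 0 of 22 cytosolic co-chaperones were higher and 5 lower (median -0.30), under the all-gene share in both directions. Between the unbound columns (all genes 18.9% and 23.8%) 1 was higher and 7 lower (median -0.56). Stip1, which links HSP70 to HSP90, stood at 135 RPKM in wild-type cells and 20.2 RPKM in mutant unbound RNA, beside 116 and 99.3 RPKM in input. Of 15 endoplasmic reticulum folding genes, 2 were higher and 5 lower in mutant unbound against input RNA, near the shares of all genes, and Hyou1 was listed at 13.1 RPKM in wild-type cells and 0.99 RPKM in mutant unbound RNA. Of 7 mitochondrial genes, 1 was higher and 4 lower (median -1.41). Among the 12 known heat shock factor 1 targets, 1 was higher (Hspe1) and 6 lower, with a median of -1.02, beside 0 higher and 3 lower in wild-type (all genes 3.98% and 31.3%). Hsf1 was near level in the 2 unbound columns, at 41.0 and 40.6 RPKM.

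The length of a gene's genomic span ran with the unbound ratio over all genes and hardly over the 64. Spearman's rho between span and the mutant unbound ratio was -0.48 over 8082 genes and -0.11 over the 64, and for wild-type it was -0.22 and 0.03; the points share their libraries, and this is a description. Genomic span includes introns and so is not transcript length, and its part in these ratios was not tested. Dnajc30, with a span of 1160 bases, and Hspb11, with 30905 bases, are 2 picked examples. Their mutant ratios of unbound to input were 0.27 and 2.81. In the RefSeq gene table, spans of 29 of the 64 overlap that of another gene, and for 19 of them, Dnajc30 and Dnajc19 included, that gene is also listed in the deposited tables, which leaves the source of reads in the shared stretch uncertain. Dnajb1, Bag5 and the HSP90 genes are not among the 29. Several members, among them Hspa8, Hspe1 and Hsp90aa1, are known to have processed pseudogenes, and how reads that fit several places were counted is not given in the sources used here.

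Against the unbound rather than the input column, m6A-tagged RNA was at least 2-fold higher for 19 of the 64 genes in wild-type (all genes 36.9%) and lower for 12 (all genes 16.4%), and higher for 24 (all genes 39.6%) and lower for 7 (all genes 13.9%) in mutant cells. The medians were -0.03 and 0.56, beside 0.36 and 0.57 for all genes. Median-ratio scaling turned the counts to 12 higher and 20 lower in wild-type and to 19 and 11 in mutant cells. The shares of all genes given here are for the columns as deposited and are no background for these rescaled counts. The highest ratios were those of Bag5 (4.30), Dnajb1 (4.25) and Bag4 (3.80) in wild-type, and of Hsp90aa1 (3.30), Hspa12b (2.49) and Hsph1 (2.28) in mutant cells. The lowest were Dnajc12 (-3.25) and Hspb11 (-2.54) in wild-type and Hspb11 (-3.01) and Hspe1 (-2.25) in mutant cells. The genotype difference in this ratio was at least 2-fold higher in mutant cells for 20 genes (all genes 23.2%) and lower for 9 (all genes 23.1%), with a median of 0.20 beside -0.03 for all genes. The higher genes held all 3 HSP90 genes and 7 of the 8 TRiC subunits (6 under either scaling), with Tcp1 the exception at 0.00. Dnajb1 had the lowest difference, at -3.58, and Bag6 the highest, at 2.87. These ratios reuse the unbound columns, so they show the same differences from another side.

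Between the m6A-tagged columns, 1 of the 64 genes was at least 2-fold higher in mutant cells (all genes 5.97%) and 3 were at least 2-fold lower (all genes 9.39%), with a median of -0.08 beside -0.07 for all genes. Dnajc12 was the higher gene (1.79), at 1.24 against 6.78 RPKM. The 3 lower genes were Dnajc21 (-1.79), Hspa4l (-1.32) and Hsp90b1 (-1.12), the last at 347 against 159 RPKM. Hsp90b1 was lower in input too, at -0.73, and Hspa4l at -0.59, neither of them 2-fold. Dnajb1, for which the unbound columns lay farthest apart in the higher direction, was level in the m6A-tagged columns, at 81.5 and 78.4 RPKM.

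**Figure D5:**
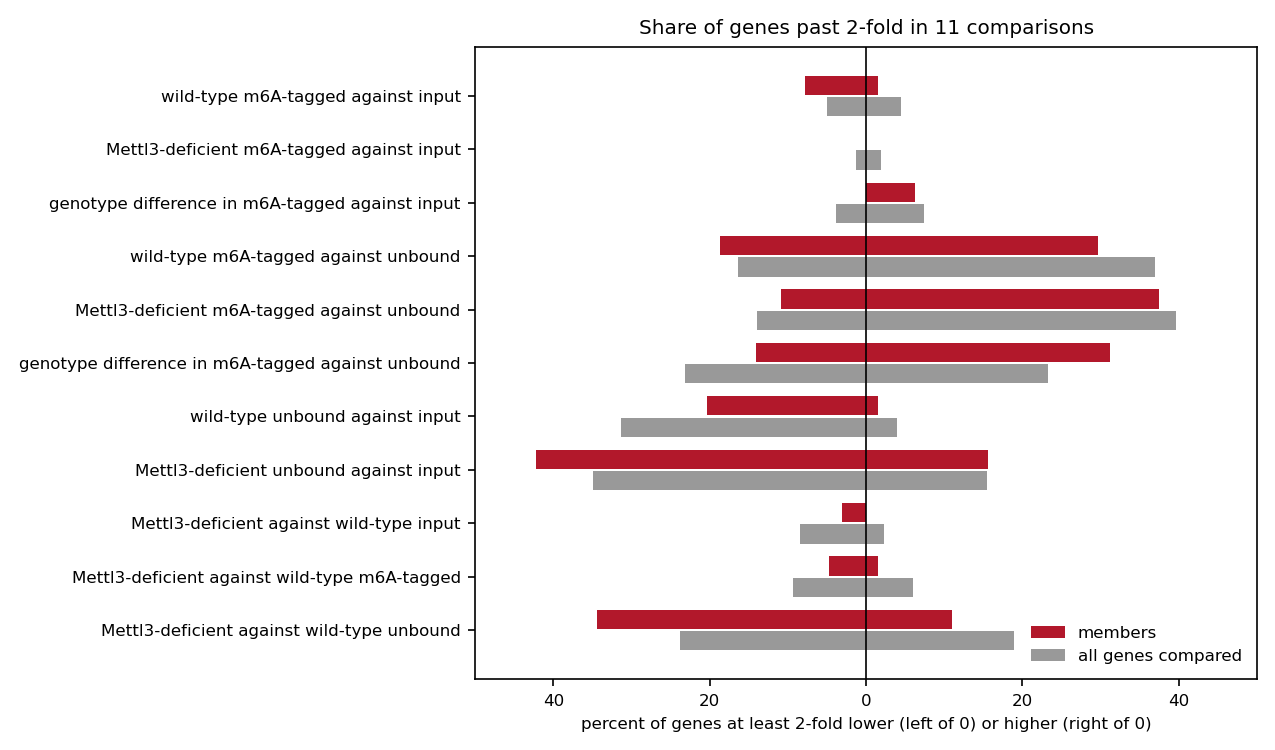
Percent of the 64 genes (red) and of all 8092 genes compared (grey) at least 2-fold lower (left of 0) or higher (right of 0) in each of the 11 comparisons of column means. To the left, the red bar is longer than the grey one in 4 comparisons: Mettl3-deficient unbound against input (27 of the 64 genes), between the unbound columns (22), wild-type m6A-tagged against unbound (12) and wild-type m6A-tagged against input (5).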

How the data were processed

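Poly(A)+ RNA of sorted HSCs was measured as input, unbound and m6A-tagged fractions in 6 groups of 3 libraries by Smart-seq2 and paired 150-base reads, per the labels' protocols. The authors deposited 2 tables, 1 per genotype, of RPKM values, with 1 column per fraction. Each column is the authors' mean for its group of 3 libraries, a number taken from the sample labels. Depth was worked out on the reading that 1 read was added per gene. The genome build was mm10 and the tools named are Picard and edgeR, without roles, per the submitters' processing notes. Which aligner and counter were run is not given in the sources used here. Depth was computed from 6986 genes without reads in any library.

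From the deposited RPKM values, log2((RPKM + 1)/(RPKM + 1)) was computed for 11 comparisons, over genes averaging 5 RPKM or more, with 2-fold as the threshold (Python 3.11.15, pandas 2.3.3, numpy 2.4.6, scipy 1.17.1). The scripts were tested on simulated data. RPKM columns are each relative to their own total, so a ratio compares shares. As no column holds a single library, the limma fit planned for that case could not be run. The genes named are, per comparison, members past 2-fold (at most 10 each way), a fixed set of well known chaperones, the members of highest and lowest mean, and from the pathway lists Hsf1, Hsf2, Stip1, Hyou1 and genes 2-fold apart between inputs; other members named to show the range of a class were chosen after their values were seen. The members, gene lists and minimum were chosen with earlier results of these data known. Coordinates and promoter sequences come from RefSeq tables for GRCm38.p6; all 64 members matched by gene ID, and 52 had a promoter window. Other pseudocounts, scalings and minimums were tried as alternatives.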

Additional observations from a re-analysis of the deposited data

How the results depend on the processing

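No member at least 2-fold apart changed direction under another added value (0.1 or 5 RPKM) or another scaling of the columns (median ratio or upper quartile). This was largely fixed beforehand and is no support. A value added to both columns cannot change the sign of the ratio of a pair of columns. The scaling factors lay between 0.76 and 1.18, too close together to turn such a ratio once past 2-fold. Only in the genotype differences could an added value have changed the direction. Over the 64 members in the 11 comparisons under these 4 settings (2816 values), 2695 kept their side of the 2-fold threshold, 77 no longer passed it and 44 newly passed it, 26 of them under median-ratio scaling. The count of members past 2-fold stayed within 1.5 times in 58 alternatives and moved in 19. Adding 5 RPKM gave 3 in place of 6 for wild-type m6A-tagged against input. The minimums change which genes are counted by construction: 95 genes with no minimum, 52 with a mean of 10 RPKM and 29 with 50 RPKM. Every share of all genes past 2-fold given above is for the columns as deposited and the minimum of 5 RPKM. Counts under another setting have no such share beside them, so they do not show whether the members depart from all genes. With no minimum the counts were 1 for Mettl3-deficient m6A-tagged against input, 8 for the difference between genotypes in the m6A-tagged to input ratio, 22 for wild-type unbound against input, 4 for Mettl3-deficient against wild-type input and 10 between the m6A-tagged columns. With 10 RPKM they were 2 for the difference between genotypes in the m6A-tagged to input ratio, 0 between the inputs and 2 between the m6A-tagged columns. With 50 RPKM they were 3 for wild-type m6A-tagged against input, 2 for the difference between genotypes in it, 10 and 11 for wild-type and Mettl3-deficient m6A-tagged against unbound, 17 for the difference between genotypes in it (with a median of 0.93 in place of 0.20), 4 and 15 for wild-type and Mettl3-deficient unbound against input, 0 between the inputs, 1 between the m6A-tagged columns and 15 between the unbound columns. No paired analysis was possible because each column is a mean over the replicates, and for the same reason no replicate could be left out. Precision is limited by the depth of the Mettl3-deficient input and unbound groups, and for genes under 10 RPKM by the added values.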
